A study of Mus musculus with 24 samples.

Results

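The sarcomeric myosin heavy chain genes Myh1, Myh2, Myh3, Myh4, Myh6, Myh7, Myh7b and Myh8 were taken by symbol from a table of raw counts, and these 8 are the members described here, out of 18669 genes. All 8 passed the filter on low counts, which left 13754 genes for testing. RNA of quadriceps femoris muscle was sequenced after polyA selection for 24 mice, 2 in each of 12 groups, to compare the response to heat shock (HS) and to HSP90 inhibition in wild type mice, in a mouse model of Huntington's disease and in mice without the heat shock factor HSF1.

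All mice had the CBA x C57BL/6 F1 background, and muscle was taken 4 h after treatment. The genotypes were wild type, R6/2 and Hsf1-/-. R6/2 mice carry a transgene for the first exon of human huntingtin with an expanded CAG repeat, and Hsf1-/- mice are homozygous Hsf1 knockouts. Under isoflurane anaesthesia and with a heating pad, the body of control mice was kept at 36.9 °C for 21 min, and that of HS mice was warmed to 41.5 °C and held there for 15 min. HSP990, an inhibitor of the chaperone HSP90, was given by gavage at 12 mg/kg in methyl cellulose and saline, and its vehicle group received saline by gavage. Wild type and R6/2 mice were 12 weeks old throughout, whereas Hsf1-/- mice were 10 weeks old in the HS experiment and 8 weeks old in the HSP990 experiment, so that age and the Hsf1 genotype cannot be told apart.

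Sarcomeric myosin heavy chains form the thick filaments of striated muscle, and their heads are the motors that pull on actin. Which chain a fibre makes sets how fast it contracts: Myh4 encodes the fast chain of type IIb fibres, Myh1 that of type IIx, Myh2 that of type IIa, and Myh7 the slow chain of type I fibres, which is also the beta chain of the heart. Myh6 encodes the alpha chain of the heart, Myh3 the embryonic and Myh8 the perinatal chain, and Myh7b an ancient slow-type chain that hosts a microRNA. Mouse quadriceps is known as a muscle of mainly fast fibres.

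In the mm9 build, 5 of the genes lie in a row on the + strand of chromosome 11, in the order Myh3 (chr11:66891802-66915793), Myh2 (chr11:66984529-67011019), Myh1 (chr11:67013554-67038078), Myh4 (chr11:67051314-67073948) and Myh8 (chr11:67090626-67122136). Myh6 (chr14:55560758-55585764) and Myh7 (chr14:55589525-55613471) are neighbours on the - strand, and Myh7b lies alone at chr2:155436948-155460043 on the + strand. The longest annotated transcripts have 39 to 42 exons and 6016 to 6230 bases, and their coding regions differ by few codons, from 1935 for Myh7 to 1942 for Myh1 and Myh2.

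The likeness of the transcripts bears on every value given here, since the reads were 40 bases long. As an example, the 60 bases of coding sequence around the P-loop, the part of the motor head that binds ATP, are shown 5′ to 3′ on the coding strand, with capitals for bases unlike those of Myh4. Each stretch spans a junction between 2 exons, and the mm9 positions given are those of its first and last base.
Myh4 (exons 5 and 6, chr11:67055654-67055805): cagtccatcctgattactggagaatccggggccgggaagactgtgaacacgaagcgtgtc
Myh1 (exons 6 and 7, chr11:67017089-67017893): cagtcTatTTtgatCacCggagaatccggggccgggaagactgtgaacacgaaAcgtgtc
Myh2 (exons 6 and 7, chr11:66989657-66989798): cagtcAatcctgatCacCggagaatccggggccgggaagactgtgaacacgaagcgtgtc
Myh8 (exons 6 and 7, chr11:67096765-67096922): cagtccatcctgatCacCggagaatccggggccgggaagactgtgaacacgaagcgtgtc
Myh3 (exons 6 and 7, chr11:66896912-66897294): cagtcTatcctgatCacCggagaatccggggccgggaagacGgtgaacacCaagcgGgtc
Myh7 (exons 7 and 8, chr14:55609995-55610569): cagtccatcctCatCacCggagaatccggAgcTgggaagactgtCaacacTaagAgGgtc
Myh6 (exons 6 and 7, chr14:55581927-55582233): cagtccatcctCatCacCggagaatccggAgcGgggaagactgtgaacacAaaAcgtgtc
Myh7b (exons 6 and 7, chr2:155440215-155441179): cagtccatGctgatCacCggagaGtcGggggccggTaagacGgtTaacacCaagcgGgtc
Myh8 differed from Myh4 at 2 of these bases, Myh2 at 3, Myh1 and Myh3 at 6, Myh6 at 7, Myh7 at 9 and Myh7b at 10.

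Over whole transcripts, 32.5% of the windows of 40 bases in Myh1 and 32.6% in Myh2 also occurred without a mismatch in another gene, against 24.0% in Myh4, 26.3% in Myh8, 27.4% in Myh6, 26.7% in Myh7, 7.18% in Myh3 and 0% in Myh7b. Myh1 and Myh2 had 1424 such windows in common, and Myh6 and Myh7 had 1652. Myh4, the most abundant of the 8, had 863 in common with Myh1, 813 with Myh2 and 726 with Myh8. It had fewer in common with Myh3 (112), Myh6 (22) and Myh7 (22). How reads that fit 2 of these genes were counted is not given in the sources used here. The split of counts between Myh1 and Myh2, and between Myh6 and Myh7, is therefore uncertain. So is that between Myh4 and the less abundant Myh1, Myh2, Myh8, Myh3, Myh6 and Myh7, which bears on the ratios to Myh4 below and on the rare chains. Transcripts annotated on the opposite strand overlap Myh1, Myh2, Myh7 and Myh7b. The libraries were strand-specific, but whether the counting used strand is not stated.

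Myh2, Myh1, Myh4 and Myh8, which follow each other on chromosome 11, also had a short stretch of promoter in common. In the RefSeq promoters of the GRCm38.p6 build, the longest run of letters held by Myh2, Myh1, Myh4 and Myh8 upstream of the start was 14 bases, shown here in capitals with the bases around it, 5′ to 3′ on the + strand.
Myh2 (chr11:67170879-67170938, GRCm38.p6): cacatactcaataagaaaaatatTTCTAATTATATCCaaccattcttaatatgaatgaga
Myh1 (chr11:67199919-67199978, GRCm38.p6): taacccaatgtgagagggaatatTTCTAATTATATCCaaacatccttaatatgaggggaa
Myh4 (chr11:67237631-67237690, GRCm38.p6): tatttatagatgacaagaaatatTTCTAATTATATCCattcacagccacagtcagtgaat
Myh8 (chr11:67277047-67277106, GRCm38.p6): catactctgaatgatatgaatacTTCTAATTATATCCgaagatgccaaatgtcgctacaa
The run began 125, 160, 158 and 54 bases before the start of Myh2, Myh1, Myh4 and Myh8. On either strand it was found in 4 of 32851 promoters (0.0122%), which are these 4 and not those of the neighbouring Myh3 or of Myh6 and Myh7. The TATA-box letters TATAAA, held by 13.6% of all promoters on either strand, began 32 bases before the start of Myh1, 31 before that of Myh4 and 29 before that of Myh3 on the strand of the gene. Myh2, Myh6 and Myh8 held them elsewhere in the window or on the other strand, and Myh7 and Myh7b did not hold them. For the MEF2 motif, only a form with C as its first and G as its last base was searched. No promoter of the 8 genes held this form, which 3.69% of all promoters held. Forms with other bases at these ends were not searched, so whether the 8 promoters hold a MEF2 site is left open. The matches given here are letters in a window and were not tied to any measurement.

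Library totals were 22450177 to 46599238 counts. Levels are given as CPM, counts over the library total after TMM scaling, whose factors ran from 0.808 to 0.954 in wild type and Hsf1-/- mice and from 1.19 to 1.40 in R6/2 mice. Skeletal muscle markers were abundant in all libraries: the summed level of Acta1, Ckm, Ttn, Des and Mb was 111488 to 135955 CPM in wild type, 96948 to 140003 in Hsf1-/- and 27258 to 47069 in R6/2 mice. Hsf1 itself, the targeted gene, was at 52.9 to 68.5 CPM in wild type, 45.3 to 53.7 in R6/2 and 21.1 to 29.0 in Hsf1-/- mice, so the knockout libraries still held counts of the gene, at a level below all others. The Y-linked genes Ddx3y, Uty, Eif2s3y and Kdm5d had counts in all Hsf1-/- mice and in the wild type and R6/2 mice of the HSP990 experiment, but were at 0 to 4 counts in the wild type and R6/2 mice of the HS experiment, so sex and experiment cannot be told apart in the latter genotypes, nor sex and the Hsf1 genotype in the HS experiment.

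Myh4 dominated the heavy chain counts in every mouse. It was the gene with the highest mean level of the 13754 tested, at 59249 CPM over the 24 libraries, and Myh1 ranked 21 at 4316 CPM and Myh2 ranked 51 at 1837.5 CPM. Counts of these 3 fast chains made up 99.4% to 99.9% of all heavy chain counts of a library. The remaining 5 genes had means of 75.2 CPM (Myh8), 55.2 (Myh7), 35.8 (Myh3), 10.3 (Myh6) and 6.86 (Myh7b). Per kilobase of transcript, wild type levels were 10057 to 13987 CPM for Myh4, 652 to 1176 for Myh1 and 252 to 516 for Myh2 (8 mice), ranges that did not overlap. Those of Myh8 (2.11 to 33.2), Myh7 (0.889 to 26.7) and Myh3 (2.07 to 13.3) overlapped one another, as did those of Myh6 (0.717 to 3.00) and Myh7b (0.977 to 2.49), so their order is not beyond the spread between mice.

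**Figure D1:**
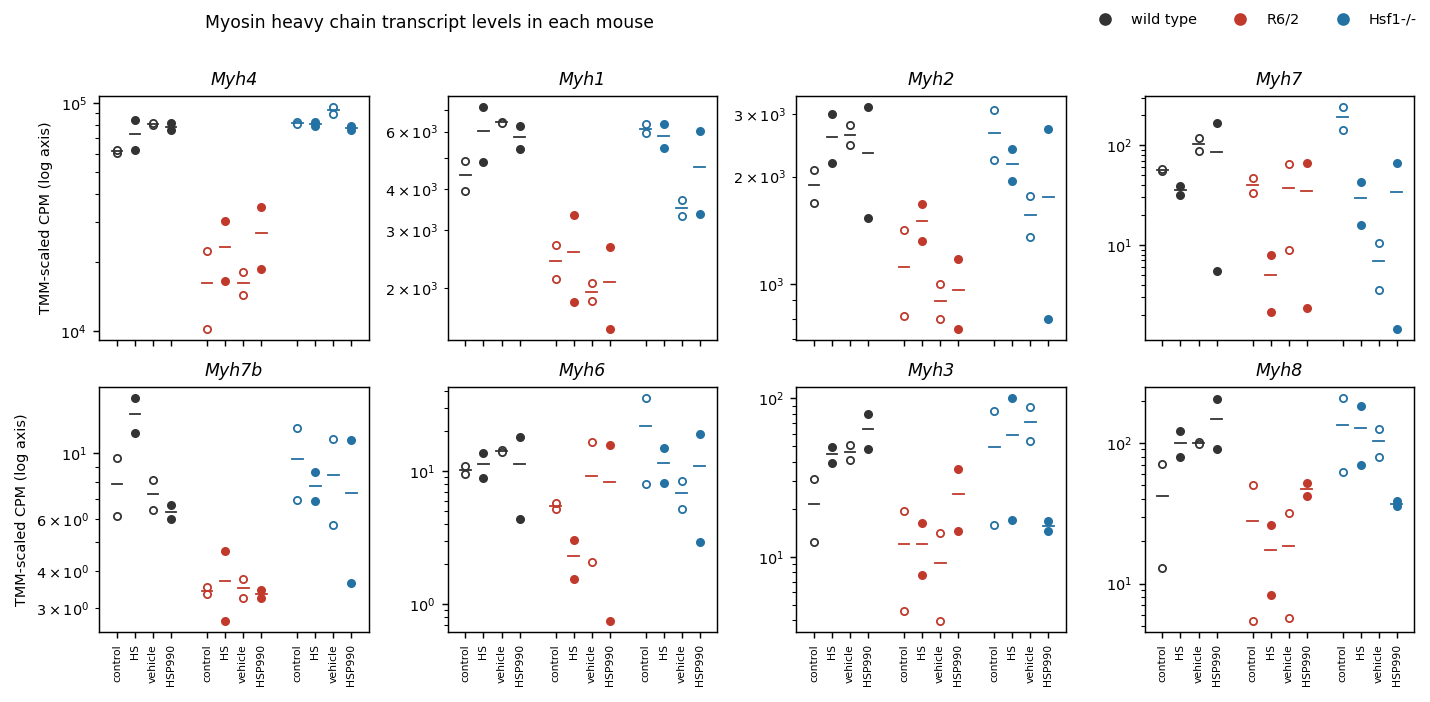
Level of each heavy chain transcript in each of 24 mice, in TMM-scaled CPM on a log axis, by genotype (colour) and treatment (horizontal axis). Open points are control and vehicle mice, filled points HS and HSP990 mice, and short lines are means of 2 mice. All 8 R6/2 mice lie below all 8 wild type mice for Myh4, Myh1 and Myh7b, whereas Myh7 spans 1.44 to 243.7 CPM with no such order.

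R6/2 muscle held less of the fast heavy chain transcripts than wild type muscle. In untreated mice, that is control and vehicle mice together, 4 of the 8 genes were called lower in R6/2 and 0 higher, the fast chains Myh4, Myh1 and Myh2 and the rare Myh7b, and the other 4 had log2 fold changes below 0 that were not called. Calls were made with edgeR (quasi-likelihood F test, p adjusted after Benjamini and Hochberg over 13754 genes, threshold 0.05), and 30.5% of all tested genes were called in this comparison, 2075 higher and 2119 lower. The median log2 fold change was -1.22 over the 8 genes and 0.05 over all tested genes. When libraries were scaled by their totals only, the median over all genes was 0.66, 95.3% of called genes were higher in R6/2 instead of 49.5%, and Myh4 and Myh1 were still called lower, at -1.51 and -0.69. In bulk tissue, fewer cells of a type and less RNA per cell cannot be told apart.

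Myh4, the chain of the fastest fibres, changed most. Its level was 10218.5 and 22345 CPM in R6/2 control mice and 14392 and 18166 CPM in R6/2 vehicle mice, against 60500.5 and 62209 CPM in wild type control and 80002 and 81895.5 CPM in wild type vehicle mice. The groups did not overlap, and the highest R6/2 mouse had less than the lowest wild type mouse by a wide margin. The means were 16280.5 ± 5185 and 71152 ± 11360.2 CPM (SD, n = 4 each), a log2 fold change of -2.11 (SE 0.24, edgeR adjusted p = 1.08e-05), or a level 4.33-fold lower. The call held in control mice alone (-1.91, adjusted p = 0.00225) and in vehicle mice alone (-2.31, adjusted p = 2.59e-04).

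Myh1, the chain of type IIx fibres, followed at a smaller size. R6/2 mice had 2126 and 2708 CPM (control) and 2064 and 1821 CPM (vehicle), and wild type mice 3968 and 4875 CPM (control) and 6430.2 and 6379 CPM (vehicle). All R6/2 values lay below all wild type values, and the log2 fold change was -1.30 (SE 0.22, edgeR adjusted p = 3.27e-04). In control mice alone it was -0.87 and was not called (adjusted p = 0.0754), and in vehicle mice alone it was -1.72 and was called (adjusted p = 0.00123).

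Myh2, the chain of type IIa fibres, was at 815 and 1422 CPM (control) and 797 and 1000.1 CPM (vehicle) in R6/2 mice and at 1686 and 2093 CPM (control) and 2459.7 and 2782 CPM (vehicle) in wild type mice. The groups did not overlap here either, and the log2 fold change was -1.15 (SE 0.31, edgeR adjusted p = 0.0103). Without the first R6/2 control mouse the call was lost (-0.98, adjusted p = 0.0567), and in control mice alone it was also not made (-0.76, adjusted p = 0.292).

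Myh7b had 3.52, 3.34, 3.24 and 3.77 CPM in the R6/2 and 6.16, 9.63, 6.46 and 8.14 CPM in the wild type untreated mice, so that it was low in both genotypes and lower in R6/2. It was the only one of the 4 called genes with no window of 40 bases in common with another gene. Its log2 fold change was -1.13 (SE 0.31, edgeR adjusted p = 0.0103), and the call was lost without the second wild type control mouse (-0.95, adjusted p = 0.0519) and in control or vehicle mice alone.

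The developmental chains were not called in untreated R6/2 mice. Myh3 was at 4.54, 19.6, 3.97 and 14.3 CPM in R6/2 and 30.9, 12.5, 40.9 and 51.1 CPM in wild type untreated mice, and Myh8 at 5.46, 50.1, 5.69 and 31.6 CPM against 71.0, 13.0, 101.4 and 97.9 CPM. The groups overlapped for both genes, since the second wild type control mouse was low and the second mouse of each R6/2 group high. The log2 fold changes were -1.59 (95% interval -2.90 to -0.29, edgeR adjusted p = 0.0611) for Myh3 and -1.51 (-2.94 to -0.08, adjusted p = 0.103) for Myh8. These estimates depended on single mice. With 1 mouse left out they ran from -2.30 to -1.20 for Myh3 and from -2.68 to -0.66 for Myh8. Over 11 other settings they ran from -2.34 to -0.85 for Myh3 and from -2.42 to -0.59 for Myh8. Over all 4 treatments, with 8 mice per genotype, both were called lower, at -1.61 (adjusted p = 0.00700) and -1.80 (adjusted p = 0.00637). The slow and cardiac chains were too variable for a call: Myh7 differed by -0.99 (95% interval -3.14 to 1.16) and Myh6 by -0.76 (-2.38 to 0.87).

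**Figure D2:**
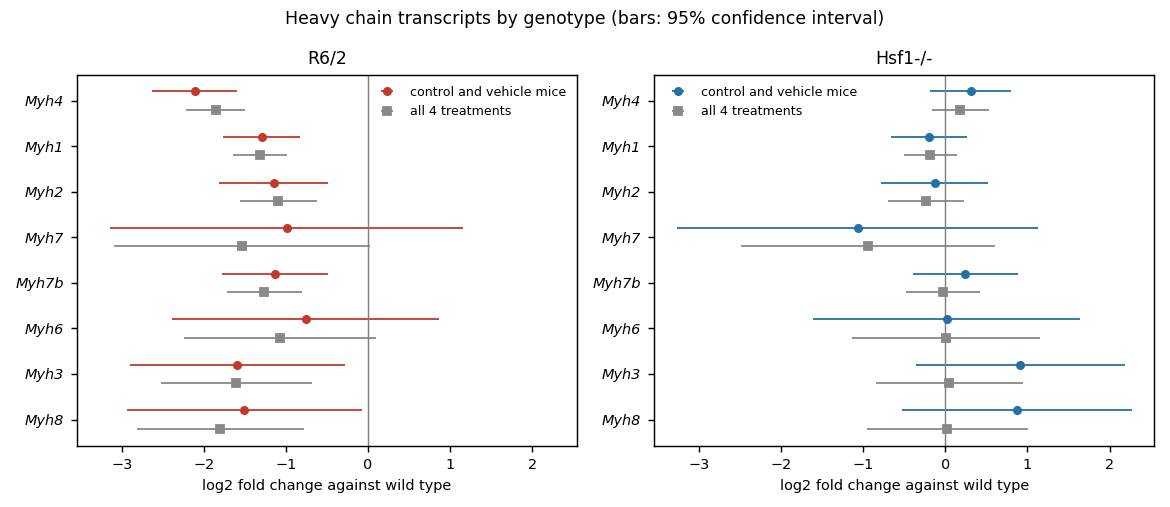
Log2 fold change of each heavy chain transcript against wild type in R6/2 mice (left) and Hsf1-/- mice (right), with bars for the 95% confidence interval. Circles are control and vehicle mice together (n = 4 per genotype) and squares all 4 treatments (n = 8). In R6/2 mice all 8 estimates lie below 0, from -2.11 for Myh4 to -0.76 for Myh6 in untreated mice, while in Hsf1-/- mice every interval holds 0.

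The heavy chains took 5.90% to 7.92% of all counts of a library in wild type mice, 1.78% to 4.76% in R6/2 mice and 7.53% to 8.47% in Hsf1-/- mice. Within these counts the mix of chains differed as well. Myh4 made up 88.6% to 92.1% in wild type mice and 77.3% to 92.5% in R6/2 mice, where the highest share, 92.5%, belonged to the first HSP990 mouse and the other 7 mice had at most 86.0%. Myh2 made up 1.73% to 3.65% in wild type and 3.10% to 6.68% in R6/2 mice. Such shares of counts do not depend on how libraries are scaled.

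The ratio of Myh2 to Myh4 counts was therefore compared between genotypes, with mice permuted within treatments (exact two-sided test, 1296 arrangements), a test that was added after the data had been seen. The ratio ranged from 0.0188 to 0.0412 (median 0.0338) in 8 wild type mice and from 0.0335 to 0.0797 (median 0.0554) in 8 R6/2 mice. It lay above the wild type median in 7 of 8 R6/2 mice and above the highest wild type mouse in 6 of 8. The mean log2 ratio was higher by 0.82 in R6/2 mice, or 1.77-fold (exact permutation p = 0.00463, 0.0185 after Benjamini-Hochberg adjustment over 4 ratios). It passed with any 1 mouse left out, and in untreated mice alone, where it was 1.00 and the design cannot give a p below 0.0556, it did not (0.111 after adjustment). In R6/2 muscle the counts of Myh4 were thus lower by a larger factor than those of Myh2. The part of reads that fit both genes in this ratio was not tested.

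For Myh1 to Myh4 the ratio was 0.0653 to 0.0850 (median 0.0781) in wild type and 0.0427 to 0.208 (median 0.116) in R6/2 mice. It was above the wild type median in 7 of 8 R6/2 mice, and the mean log2 difference of 0.57 had an exact permutation p of 0.0432, which did not pass after adjustment (0.0864). Without the first R6/2 HSP990 mouse, which had the lowest ratio of its genotype, the difference was 0.77. With any 1 mouse left out, the adjusted exact permutation p ran from 0.00617 to 0.127, so whether it passed depended on the mouse. In Hsf1-/- mice the mean log2 ratios differed from wild type by -0.38 for Myh1 and by -0.46 for Myh2 (exact permutation p = 0.0679 and 0.116, adjusted 0.0905 and 0.116), and neither passed. Without the second Hsf1-/- HSP990 mouse they were -0.44 and -0.56. With any 1 mouse left out, the adjusted exact permutation p ran from 0.0309 to 0.185 for Myh1 and from 0.0309 to 0.222 for Myh2. Whether these ratios passed thus also depended on the mouse. The lowest values in that genotype were those of the vehicle mice, at 0.0345 and 0.0415 for Myh1 to Myh4, and of the first HSP990 mouse, at 0.0424.

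**Figure D3:**
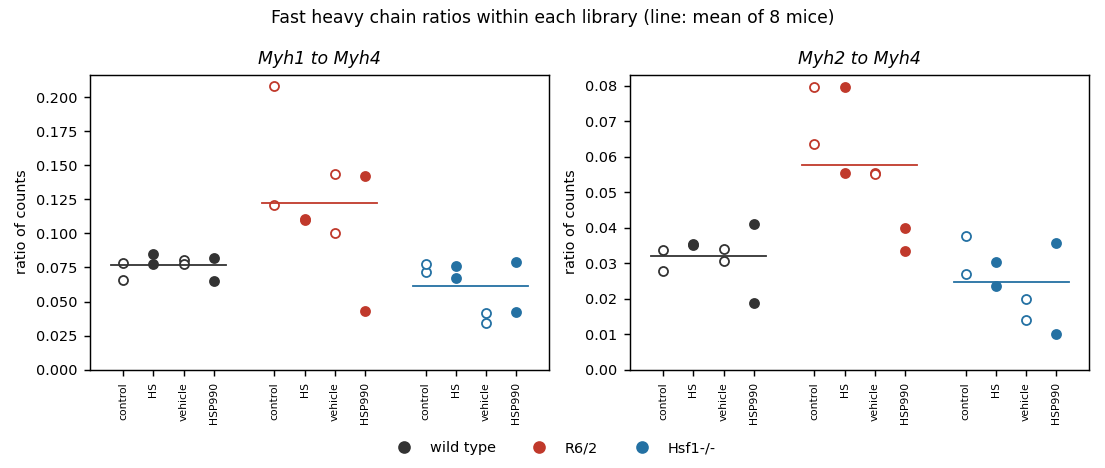
Ratio of Myh1 (left) and Myh2 (right) counts to Myh4 counts in each of 24 libraries, by genotype and treatment, with a line at the mean of the 8 mice of a genotype. Open points are control and vehicle mice, filled points HS and HSP990 mice. For Myh2, 6 of 8 R6/2 mice lie above the highest wild type mouse (0.0412), and both R6/2 HSP990 mice (0.0335 and 0.0399) lie below it.

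Partner genes of the fast thick and thin filaments moved with Myh4 in R6/2 mice. Of 16 fast fibre partners, 15 were called lower and 1 higher, where 2119 of all 13754 genes were called lower. The median change of the list was -1.78 (log2), and that of all tested genes 0.05. The largest falls were those of Myl1, a fast essential light chain (-2.40, SE 0.25, adjusted p = 4.87e-06), Pvalb, the calcium buffer parvalbumin of fast fibres (-2.32, SE 0.24), Tpm1, a tropomyosin (-2.10), Mybpc2, the fast myosin binding protein C (-2.08), and Casq1, the fast calsequestrin (-2.03). The exception was Myl12a, a regulatory light chain of non-muscle myosin, at 0.59 (SE 0.13, adjusted p = 0.00316).

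Of 15 tested slow fibre partners, 2 were called higher, Casq2 (1.44, SE 0.30, adjusted p = 0.00148), the calsequestrin of slow and cardiac muscle, and Myl6b (1.00, SE 0.16, adjusted p = 1.96e-04), a light chain, and 0 lower. Over all tested genes 2075 of 13754 were called higher. The median of these slow fibre partners was -0.05. The slow troponins, which pair with Myh7 in slow fibres, were at -0.70 (Tnni1), -0.69 (Tnnc1) and -0.05 (Tnnt1), with standard errors of 0.61 to 0.75.

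Of 16 genes of development and denervation, 6 were called higher, 1 was called lower and 9 were not called, where 2075 of all 13754 genes were called higher. The list had a median of 0.33, and with scaling by library totals 9 were called higher and 1 lower, where 8455 of all genes were called higher. Its summed level had a median of 1105 CPM in R6/2 mice (760.6 to 1343) and 2381 CPM in wild type mice (996 to 4561; 8 mice each, all treatments), and the ranges overlapped. The largest rises were in Runx1, a transcription factor of denervated muscle (2.39, SE 0.30, adjusted p = 2.40e-05), Chrna1, the alpha subunit of the acetylcholine receptor (1.87, SE 0.15), Musk, the kinase that clusters this receptor (1.37), and Myog, the myogenic factor myogenin (1.08, adjusted p = 0.0362). The fall was that of Actc1, the cardiac actin that is also made by developing muscle (-2.50, SE 0.55, adjusted p = 0.00252), and Myh3 and Myh8 stood at the values given above.

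Over all 13754 genes, 2075 were called higher and 2119 lower, and 8455 and 421 with scaling by library totals. Of 14 tested genes for folding, assembly and turnover of myosin, 3 were called higher and 5 lower. With scaling by library totals 7 were called higher and 1 lower, so the direction of this list depends on the scaling. Lower were Ttn, the giant template of the sarcomere (-1.54, SE 0.16), Myom1, an M-band protein (-0.75), Unc45b, the chaperone that folds the myosin head (-0.61, adjusted p = 1.02e-04), Smyd1, a methyltransferase that binds myosin (-0.59), and Trim54 (-0.42), and higher were both cytosolic HSP90 genes, Hsp90aa1 (0.57) and Hsp90ab1 (0.30), and the autophagy receptor Nbr1 (0.29). Among 23 tested regulators of myosin genes, Tead4, a transcription factor that binds MCAT elements, was called higher (2.01, SE 0.31, adjusted p = 1.38e-04), and 4 were called lower: Sox6, a repressor of slow fibre genes (132.0 ± 14.5 against 264.9 ± 37.1 CPM, n = 4, adjusted p = 1.00e-04), Tead1 (-0.97), Srf (-0.57) and Tbx15 (-0.35). The median over the 23 was -0.08, and with scaling by library totals 16 were called higher and 1 lower, so that the balance of this list also depends on the scaling, whereas 14 of 16 fast fibre partners were still called lower and 2 higher.

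Markers of other cells moved less evenly, where 30.5% of all tested genes were called. Cardiac and atrial markers summed to at most 7.35 CPM in any library, and 4 of 5 had means below 1 CPM in each genotype. Of 5 adipocyte markers 3 were called lower in R6/2 mice, with a summed level of 187 to 341 CPM against 244 to 1194 CPM in wild type mice. Of 3 satellite cell markers 1 was called higher, Pax7 (0.80, adjusted p = 0.00916), with a summed level of 8.76 to 14.1 against 5.30 to 9.79 CPM. None of the 5 smooth muscle, 3 endothelial, 4 leukocyte or 3 Schwann cell markers tested was called by edgeR. Their part in the difference of the heavy chains was not tested.

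No difference in heavy chains was called between untreated Hsf1-/- and wild type mice. edgeR called 0 of 8 genes, with 0 at an unadjusted p below 0.05 and 0 called by DESeq2, and 0.974% of all tested genes were called. Myh4 was at 82733 and 81304 CPM in Hsf1-/- control mice and 96387 and 89243.5 CPM in vehicle mice. Wild type mice had 60500.5 and 62209 CPM (control) and 80002 and 81895.5 CPM (vehicle). Both Hsf1-/- mice were thus above both wild type mice within each experiment, and values overlapped only across experiments. The difference of 0.31 (95% interval -0.19 to 0.80, edgeR adjusted p = 0.595) was not called. For Myh1 the difference was -0.20 (-0.66 to 0.26) and for Myh2 -0.13 (-0.78 to 0.52). For Myh7 the interval ran from -3.27 to 1.13, and its estimates pointed opposite ways in the experiments, at 1.76 in control mice (-1.33 to 4.85) and -3.90 in vehicle mice (-7.36 to -0.44), neither of them called (edgeR adjusted p = 0.561 and 0.494). In the control mice this comparison is also one between sexes, since the Y-linked genes had 5365 and 4864 counts in the Hsf1-/- and 0 in both wild type mice. Of the 14 genes for myosin folding and turnover, 2 were called lower in Hsf1-/- mice, Cryab (-1.50, SE 0.27, adjusted p = 0.0145), a small heat shock protein of the Z-disc, and Hsp90ab1 (-0.66, SE 0.10, adjusted p = 0.00285).

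HS left the heavy chain transcripts without a called change at 4 h in any genotype. In wild type mice 0 of 8 genes were called (2.06% of all tested genes), in R6/2 mice 0 of 8 (0.0436%) and in Hsf1-/- mice 0 of 8 (0.00727%). No heavy chain had an unadjusted p below 0.05 in these edgeR tests, and DESeq2 called 0 in each. With 2 mice against 2, an exact permutation test of a gene cannot give a p below 0.333. The p-values given therefore rest on a spread pooled over all 24 libraries. Over all genes, the 2 mice of an R6/2 group differed more (chi-square per degree of freedom 48.9 to 99.0) than those of a wild type group (21.8 to 30.1). The pooled spread need not hold for R6/2 mice alone.

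Myh4 was at 84146 and 62558 CPM in wild type HS mice, 16568 and 30271 CPM in R6/2 HS mice and 82968 and 79027 CPM in Hsf1-/- HS mice. In R6/2 and Hsf1-/- mice the HS and control values overlapped, and in wild type mice both HS mice were above both controls, the second by little. The log2 fold changes against control were 0.26 (95% interval -0.44 to 0.96), 0.52 (-0.18 to 1.23) and -0.02 (-0.72 to 0.68) in wild type, R6/2 and Hsf1-/- mice. Myh1 and Myh2 changed by 0.44 and 0.45 in wild type mice, with intervals of -0.21 to 1.09 and -0.47 to 1.38. The largest estimates were those of the slow chain Myh7, at -3.02 (-6.36 to 0.31) in R6/2 and -2.72 (-5.93 to 0.49) in Hsf1-/- mice.

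In the same wild type libraries, 6 of the 14 tested genes for folding, assembly and turnover of myosin were called higher, 0 lower, and 8 were not called. Over all genes 219 of 13754 were called higher. The list had a median change of 0.56 (log2) where all tested genes had -0.01. Unc45b went from 575 and 562 CPM in control mice to 1426 and 1371 CPM in HS mice (1.30, SE 0.13, edgeR adjusted p = 2.56e-05). Hsp90aa1, the inducible HSP90, rose by 3.89 (SE 0.26, adjusted p = 3.96e-07), Hspb1 by 2.84, Bag3, a co-chaperone of the Z-disc, by 2.19, and Trim63, the ubiquitin ligase MuRF1 that marks myosin for breakdown, by 2.18 (SE 0.35, adjusted p = 0.00324). In R6/2 mice 1 of the 14 was called, Hsp90aa1 (1.65, SE 0.24, adjusted p = 0.0101), and in Hsf1-/- mice 0 of 14.

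The HS responses of the genotypes were also compared directly. For the heavy chains, 0 of 8 were called in the comparison of R6/2 with wild type (0.0727% of all tested genes) and 0 of 8 in that of Hsf1-/- with wild type (0.16%), with 0 at an unadjusted p below 0.05 and 0 called by DESeq2 in each. Of the folding genes, the response of Unc45b in Hsf1-/- mice was smaller than in wild type by 1.25 on the log2 scale, a difference of -1.25 (SE 0.18, edgeR adjusted p = 0.00389), and that of Bag3 differed by -1.96 in Hsf1-/- and by -1.70 in R6/2 mice. Ppargc1a, a coactivator known to favour slow and oxidative fibres, was called higher after HS in wild type mice (2.05, SE 0.41, edgeR adjusted p = 0.0126) and in Hsf1-/- mice (3.12, SE 0.42, edgeR adjusted p = 0.0162). No heavy chain was called in either genotype.

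HSP990 gave the same count of 0 of 8 called genes in wild type mice (1.85% of all tested genes), R6/2 mice (1.43%) and Hsf1-/- mice (0.218%), and DESeq2 also called 0 in each. An unadjusted p below 0.05 was seen for 0, 1 and 1 of the 8 genes. The first was Myh4 in R6/2 mice, at 35119 and 18754 CPM after HSP990 against 14392 and 18166 CPM after vehicle. Only the first HSP990 mouse stood well above the vehicle mice, and the log2 fold change was 0.73 (95% interval 0.02 to 1.43, edgeR adjusted p = 0.504). This same mouse had the highest share of Myh4 among R6/2 mice and the lowest ratio of Myh1 to Myh4.

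The second was Myh3 in Hsf1-/- mice, at 14.6 and 16.9 CPM after HSP990 against 54.3 and 87.8 CPM after vehicle (-2.17, 95% interval -4.04 to -0.31, edgeR adjusted p = 0.432). Myh8 stood at 35.4 and 38.9 CPM against 80.1 and 126.0 CPM (-1.47, -3.48 to 0.54). Both developmental chains were low in both HSP990 mice, and the groups did not overlap, but neither difference passed after adjustment. In wild type mice the same chains had estimates above 0, at 0.48 for Myh3 and 0.56 for Myh8, with intervals that hold 0.

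Compared between genotypes, the HSP990 response of 0 of 8 heavy chains was called in R6/2 against wild type mice, where 0% of all tested genes were called by edgeR (981 had an unadjusted p below 0.05, and DESeq2 called 7 higher and 42 lower, none of them a heavy chain). In Hsf1-/- against wild type mice it was 0 of 8 as well (0.422% of all tested genes), with Myh3 alone at an unadjusted p below 0.05 (-2.65, 95% interval -5.22 to -0.08, adjusted p = 0.711) and 0 called by DESeq2. In wild type mice 5 of the 14 folding genes rose, where 199 of all 13754 genes were called higher. Among the 5 was Unc45b, from 589 and 600.3 to 2454 and 2535 CPM (2.07, SE 0.13, edgeR adjusted p = 9.10e-08). In R6/2 mice 5 of the folding genes rose and Trim63 fell by 1.43 on the log2 scale, where 65 of all genes were called higher and 132 lower. Tbx15, a factor known to maintain fast glycolytic fibres, fell by 0.81 on the log2 scale in wild type mice (SE 0.10, adjusted p = 1.42e-04), and Myh4 differed by -0.04 in the same mice.

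**Figure D4:**
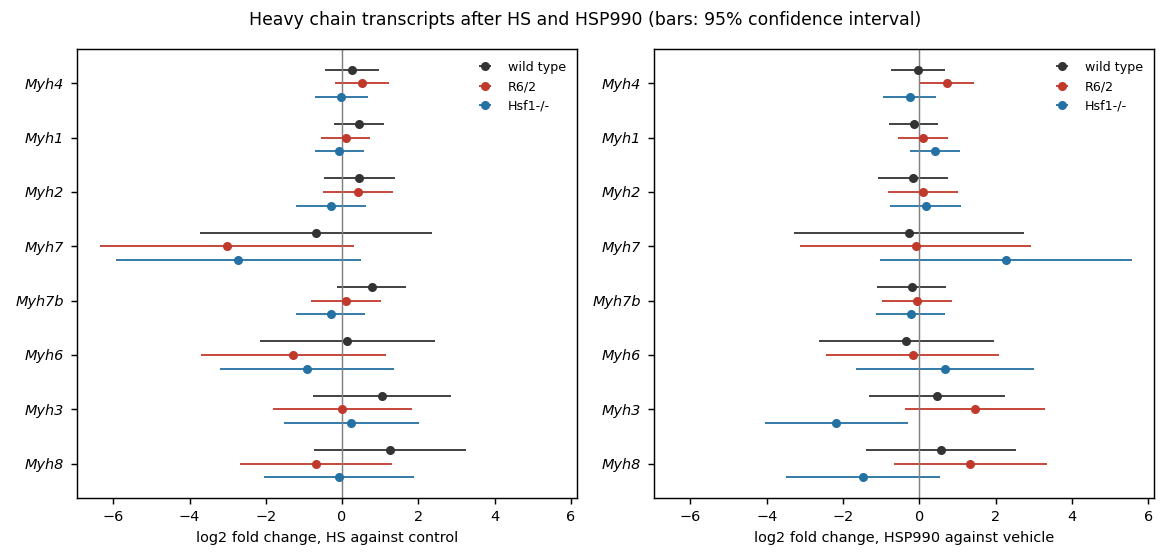
Log2 fold change of each heavy chain transcript after HS against control (left) and after HSP990 against vehicle (right) in wild type, R6/2 and Hsf1-/- mice, with bars for the 95% confidence interval (n = 2 per group). The intervals rest on the spread pooled over all 24 libraries. They are narrow for Myh4, Myh1, Myh2 and Myh7b and wide for Myh7. Of 48 intervals 2 leave out 0, those of Myh4 in R6/2 and Myh3 in Hsf1-/- mice after HSP990.

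The slow chain Myh7 had the widest range of the 8 genes over the 24 libraries, from 1.44 to 243.7 CPM or 169-fold, against 9.43-fold for Myh4, 4.77-fold for Myh1 and 4.19-fold for Myh2. Some pairs of mice were close, as in the wild type control group (55.8 and 57.9 CPM), the wild type HS group (39.2 and 31.8 CPM) and the R6/2 control group (32.9 and 47.5 CPM). Others were far apart. Its levels after HSP990 were 166.6 and 5.54 CPM in the wild type mice, 66.9 and 2.31 CPM in the R6/2 mice and 1.44 and 66.5 CPM in the Hsf1-/- mice. In each of these HSP990 groups 1 mouse was high and 1 low.

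The same mice were high and low for the slow troponins. Tnnc1, the slow and cardiac troponin C, was at 22.7 and 2.32 CPM, 11.9 and 1.33 CPM and 1.17 and 12.5 CPM in the same 6 mice. Over the 24 libraries, the genes outside the family whose log2 levels were most like those of Myh7 were Tnnc1 (Pearson r = 0.968), Tnni1 (0.953) and Tnnt1 (0.917), and after the group means had been taken out they were Tnnt1 (0.969), Tnnc1 (0.959) and Tnni1 (0.941). These are descriptions over 24 points that share 12 group means and the scaling of their libraries, and have no p. How much slow muscle each sample held was not measured apart from these genes.

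Myh6, the alpha chain of the heart, followed Myh7 (r = 0.824 over levels and 0.853 over deviations from group means), at 0.751 to 35.5 CPM. The cardiac markers that would mark heart tissue were near 0, as given above, and Myh6 has 27.4% of its windows of 40 bases in common with Myh7. In 2 libraries Myh6 had more counts than Myh7, at 125 against 85 in the second Hsf1-/- vehicle mouse and 131 against 64 in the first Hsf1-/- HSP990 mouse. At the other end, the second Hsf1-/- control mouse had 171 counts of Myh6 and 5157 of Myh7. The counts of Myh6 thus did not keep a fixed proportion to those of Myh7. Both genes also have 22 windows in common with the far more abundant Myh4. The part of reads that fit several of these genes in the counts was not tested.

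In untreated Hsf1-/- mice the levels of Myh7 were 142.4 and 243.7 CPM in control mice and 10.5 and 3.53 CPM in vehicle mice (vehicle against control -4.80, 95% interval -8.38 to -1.21, edgeR adjusted p = 0.694). Those of Myh1 were 3325 and 3706 CPM in the vehicle and 5953 and 6312 CPM in the control mice (-0.80, SE 0.31, edgeR adjusted p = 0.695), and these 2 chains were those with an unadjusted p below 0.05. These mice differed in age, anaesthesia and experiment, which cannot be told apart. In the comparison of vehicle with control mice, 0 of 8 heavy chains were called in wild type (0.24% of all tested genes) and 0 of 8 in R6/2 mice (0.0654%), with 0 at an unadjusted p below 0.05. In Hsf1-/- mice it was 0 of 8 as well, where 0% of all tested genes were called by edgeR (966 had an unadjusted p below 0.05, and DESeq2 called 2 higher and 12 lower). DESeq2 called no heavy chain in any of the 3.

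The developmental chains varied together. Myh3 and Myh8 had r = 0.940 over levels and 0.893 over deviations from group means, and the ratio of Myh3 to Myh8 counts stayed between 0.245 and 0.963, while Myh3 itself ranged 25.2-fold and Myh8 38.1-fold. In wild type control mice, for example, Myh3 was at 30.9 and 12.5 CPM and Myh8 at 71.0 and 13.0 CPM. Outside the family, Scn4a, the muscle sodium channel, was most like Myh3 (r = 0.822) and Rnf150 most like Myh8 (r = 0.831).

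The fast chains kept company with different genes. The levels of Myh4 were most like those of Casq1 (r = 0.987), Map2k6 (0.984), a kinase upstream of p38, and Pvalb (0.983), and its deviations within groups most like those of Tnni2 (0.976), the fast troponin I. Myh1 was most like Perm1 (0.940), a regulator of muscle mitochondria, Ndufv2 (0.938) and Uqcrfs1 (0.928), subunits of the respiratory chain. Myh2 was most like Mb, myoglobin (0.903), and the ATP synthase subunits Atp5g3 (0.890) and Atp5a1 (0.882). Myh7b was most like Myl10, a regulatory light chain (0.938), and Myh13, the chain of extraocular muscle (0.901). Since R6/2 mice were low for many of these genes, the correlations over levels hold the difference between genotypes.

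**Figure D5:**
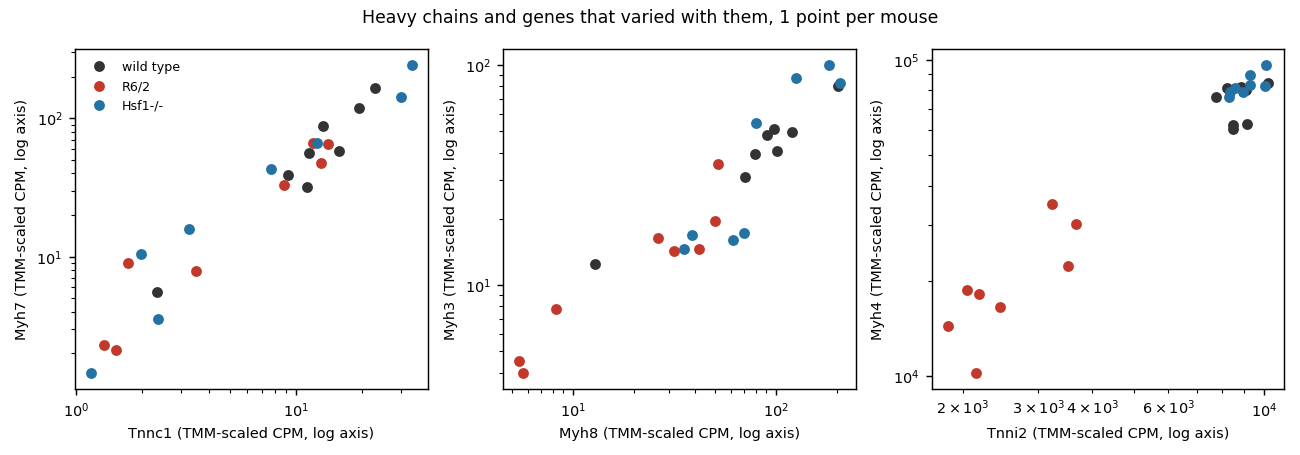
Levels in TMM-scaled CPM on log axes, 1 point per mouse and coloured by genotype: Myh7 against Tnnc1 (left), Myh3 against Myh8 (middle) and Myh4 against Tnni2 (right). Myh7 and Tnnc1 lie along a line with mice of all 3 genotypes mixed, whereas for Myh4 and Tnni2 the 8 R6/2 mice lie apart from the other 16.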

How the data were processed

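RNA-seq of quadriceps femoris muscle of 24 mice (12 groups, 2 mice each) was analysed. The authors made strand-specific libraries, mapped paired reads of 40 bases to mm9 with Bowtie and deposited raw counts per gene without normalization; the counting program is not given in the sources used here, and DESeq2 is named in the submitters' processing notes. Of 18669 gene IDs, 18594 were matched to a symbol. A gene was tested if 10 or more libraries held 2 or more of its counts, which kept 13754. After TMM scaling, one edgeR 4.0.16 model (R 4.3.3, limma 3.58.1) covered the 12 groups and left 12 residual degrees of freedom; its quasi-likelihood tests answered 15 comparisons, each adjusted over all tested genes by Benjamini-Hochberg, with a threshold of 0.05. CPM are TMM-scaled; correlations used log2(CPM + 0.5) and genes with a mean of at least 1 CPM. DESeq2 1.42.0 was an alternative. The 8 genes, all lists and the naming rule (all 8 genes, up to 5 called genes of each list per comparison by size of change, the 3 most alike genes) were chosen with earlier results of these data known; genes outside the rule are named for values a sentence is about. Between the 2 mice of a group, counts differed by more than counting error (chi-square per degree of freedom 17.4 to 99.0). On simulated data for R6/2 against wild type untreated mice, 200 of 13754 genes were changed. There edgeR made 167 calls, 161 of them right, and recovered 67% of 2-fold and 94% of 4-fold changes. With no change planted it called 0 genes, and 4.94% had an unadjusted p below 0.05. The simulation gave all groups the same spread for a gene. In the real comparison 4194 genes were called and R6/2 pairs differed more, so these rates need not hold there. Gene models are GENCODE's for mm9, and promoters are RefSeq's for GRCm38.p6.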

Additional observations from a re-analysis of the deposited data

How the results depend on the processing

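Over 11 other settings of scaling, filter, tool, samples and arms, Myh4 was called lower in untreated R6/2 mice in each (-2.31 to -1.51) and with each of 8 mice left out (-2.45 to -1.89). The count of 4 called heavy chains in that comparison became 2 with scaling by library size only, where Myh2 and Myh7b were lost (adjusted p = 0.111 and 0.132), and 1, Myh4, in control mice only. Leaving out 1 mouse gave counts of 3 to 6. Calls over all genes were 2075 higher and 2119 lower, and 8455 and 421 with library size only. After HS in wild type mice, 1 heavy chain was called where only the groups compared were fitted, Myh7 (-0.67, edgeR adjusted p = 0.0274), named after its value was seen; this fit holds only 4 mice. In untreated mice only, the log2 ratio of Myh2 to Myh4 in R6/2 mice differed by 1.00 and did not pass, as the design there cannot reach the threshold. With 1 mouse left out, the Myh1 to Myh4 difference ran from 0.44 to 0.77 in R6/2 and from -0.44 to -0.27 in Hsf1-/- mice, and the Myh2 to Myh4 difference from -0.57 to -0.30 in Hsf1-/- mice. The cause of these changes was not tested, apart from the smaller designs named. With the replicate number as a block, 5 heavy chains were called in untreated R6/2 mice, Myh3 being added (-1.74, edgeR adjusted p = 0.0486), and DESeq2 also called 5; the numbers did not pair the mice (r of the replicate differences between groups -0.385 to 0.393, over 0.1 in 12 of 66 pairs), and the block changed no other call of a heavy chain. With 2 mice per group, the wide intervals of Myh7, Myh6, Myh3 and Myh8 are what limits their comparison.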

Other observations

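Of 4 non-sarcomeric class II heavy chains, 1 was called higher in untreated R6/2 mice and 0 lower, where 2075 of all 13754 genes were called higher. Myh14, a non-muscle myosin II chain, was at 173.1 ± 22.2 CPM in untreated R6/2 and 89.3 ± 17.6 CPM in wild type mice (SD, n = 4 each), a rise of 0.97 (log2, SE 0.13, edgeR adjusted p = 3.15e-05). Myh9 (0.18), Myh10 (-0.44) and the smooth muscle chain Myh11 (0.34) were not called there. With scaling by library size only, 3 of these 4 genes were called higher in R6/2 mice, where 8455 of all 13754 genes were. Myh9 rose after HSP990 in wild type mice, from 117.4 ± 2.98 to 203.8 ± 44.3 CPM (n = 2 each, 0.80, SE 0.17, edgeR adjusted p = 0.0240).

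Myh13, the chain of extraocular muscle, was rare and lower in R6/2 mice, at 2.75 ± 0.209 against 10.3 ± 2.41 CPM (-1.90, SE 0.29, edgeR adjusted p = 1.40e-04). It was called lower with scaling by library size as well. Myh13 has windows of 40 bases in common with Myh4, Myh1 and Myh2, which were far more abundant and also lower in R6/2 mice. The part of reads from these chains in its counts was not tested.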
